A study of Mus musculus with 4 samples.

Results

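The genes described here are 8 components, regulators and receptors of the complement system in the dorsal skin: *C4b*, *C2*, *C3*, *Cfb*, *Serping1*, *Cd55*, *C3ar1* and *C5ar1*. They were chosen by gene symbol, all 8 were found among the 24346 symbols of each library, and all 8 passed the filter on low values. The skin was measured by RNA sequencing in 4 libraries, 2 of the Cont-IMQ group and 2 of the 7KC-IMQ group. Male C57BL/6 mice, 8 weeks old at the start, were fed the NASH diet, which is rich in fat, cholesterol and sucrose and contains bile salt, for 3 weeks. The Cont-IMQ group received that diet alone and the 7KC-IMQ group the same diet with 7-ketocholesterol (7KC), an oxidized form of cholesterol. Both groups then received imiquimod (IMQ) cream, which activates Toll-like receptor 7 and causes a psoriasis-like dermatitis, for 1 day. Vehicle-treated skin is not analysed here, so no value below says what IMQ itself did. The sources used here do not state whether a library came from a single mouse or from a pool.

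Complement is a cascade of plasma proteins that tags and lyses targets and calls in leukocytes. The classical and lectin routes use C4 and C2 to build a protease that cuts C3, and the alternative route uses factor B for the same step. The cut releases C3a, later steps release C5a, and both peptides act on receptors of myeloid cells and mast cells. C1 inhibitor and CD55 hold the cascade back, the former in fluid and the latter on cell membranes. The liver makes most of the plasma pool, and skin fibroblasts, keratinocytes and macrophages also express complement genes.

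None of the 8 genes was detectably higher or lower with dietary 7KC after adjustment over all genes tested. All 8 had a lower mean in the 7KC-IMQ group, with differences between -0.35 for *Cd55* and -0.088 for *Cfb* on the log2(FPKM + 1) scale. The mean was lower in 51.3% of all genes tested and in 17 of 29 other complement genes tested. FPKM is a read count scaled to the length of a gene's transcripts and to the depth of the library. In 7 of the 8 genes the highest library was Cont-IMQ replicate 2. Without that library *C3*, *C4b* and *C5ar1* were higher in the 7KC-IMQ group instead. Leaving out the highest Cont-IMQ library raises a gene's difference by construction, and without Cont-IMQ replicate 1 all 8 were lower in the 7KC-IMQ group.

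Promoter windows are shown to give the sequence context of the central component, the membrane regulator and both receptors. RefSeq windows (GRCm38.p6, from 250 bases before to 50 bases after the annotated start, 5′ to 3′ on the gene's strand) were found for 4 of the 8 genes. They are *C3* (chr17:57228087-57228386, minus strand), *Cd55* (chr1:130462695-130462994, minus strand), *C3ar1* (chr6:122856108-122856407, minus strand) and *C5ar1* (chr7:16259289-16259588, minus strand). The entries of *C4b*, *C2*, *Cfb* and *Serping1* are not printed. Capitals mark matches, on either strand, to the motifs searched.
*C3*: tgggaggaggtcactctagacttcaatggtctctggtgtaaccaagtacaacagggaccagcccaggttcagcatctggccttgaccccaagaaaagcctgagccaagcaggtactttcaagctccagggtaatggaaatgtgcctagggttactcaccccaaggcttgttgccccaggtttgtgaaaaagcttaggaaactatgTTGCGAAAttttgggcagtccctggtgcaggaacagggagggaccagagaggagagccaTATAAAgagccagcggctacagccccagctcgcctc
*Cd55*: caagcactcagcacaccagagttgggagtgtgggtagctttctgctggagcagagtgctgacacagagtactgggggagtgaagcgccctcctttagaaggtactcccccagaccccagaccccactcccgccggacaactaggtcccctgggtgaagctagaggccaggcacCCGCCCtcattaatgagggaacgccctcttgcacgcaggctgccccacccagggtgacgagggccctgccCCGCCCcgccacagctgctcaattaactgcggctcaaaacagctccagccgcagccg
*C3ar1*: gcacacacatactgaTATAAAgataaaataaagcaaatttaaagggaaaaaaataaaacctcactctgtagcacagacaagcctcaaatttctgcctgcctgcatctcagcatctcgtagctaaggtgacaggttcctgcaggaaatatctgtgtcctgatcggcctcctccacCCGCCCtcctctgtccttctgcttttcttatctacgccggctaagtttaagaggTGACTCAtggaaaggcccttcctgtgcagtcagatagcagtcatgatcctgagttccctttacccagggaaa
*C5ar1*: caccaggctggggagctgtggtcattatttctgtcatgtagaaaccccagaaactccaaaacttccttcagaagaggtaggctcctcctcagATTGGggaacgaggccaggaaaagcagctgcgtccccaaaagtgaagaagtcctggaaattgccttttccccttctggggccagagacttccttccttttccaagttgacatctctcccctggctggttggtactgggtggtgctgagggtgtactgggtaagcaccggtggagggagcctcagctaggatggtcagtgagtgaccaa

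The motifs searched were the TATA box (TATAAA), the CCAAT box (its letters), the GC box (GGGCGG), the AP-1 site (TGANTCA), the C/EBP site (TTNNGCAA), the GAS element (TTCNNNGAA), the ISRE core (GAAA, any 2 bases and GAAA again), the ETS core (GAGGAA) and the kappa B consensus. *C3* held a C/EBP match that begins 45 bases before the start, a motif present in 10.8% of 32851 promoter windows of the same length, and a TATA box (13.6% of windows) that begins at base 15 after the start. *C3ar1* held an AP-1 match that begins 22 bases before the start (7.81% of windows), a GC box (35.7%) and a TATA box that begins 235 bases before the start. *Cd55* held GC boxes that begin 77 and 7 bases before the start, and its window had a GC content of 63.3%, against 46% in *C3ar1*. *C5ar1* held only a CCAAT match (37.4% of windows), which begins 158 bases before the start. The GAS, ISRE core, kappa B and ETS core motifs, present in 8.3%, 3.44%, 8.46% and 28.3% of windows, had no match in these 4 windows. A match is a description of letters and not a bound site.

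**Figure D1:**
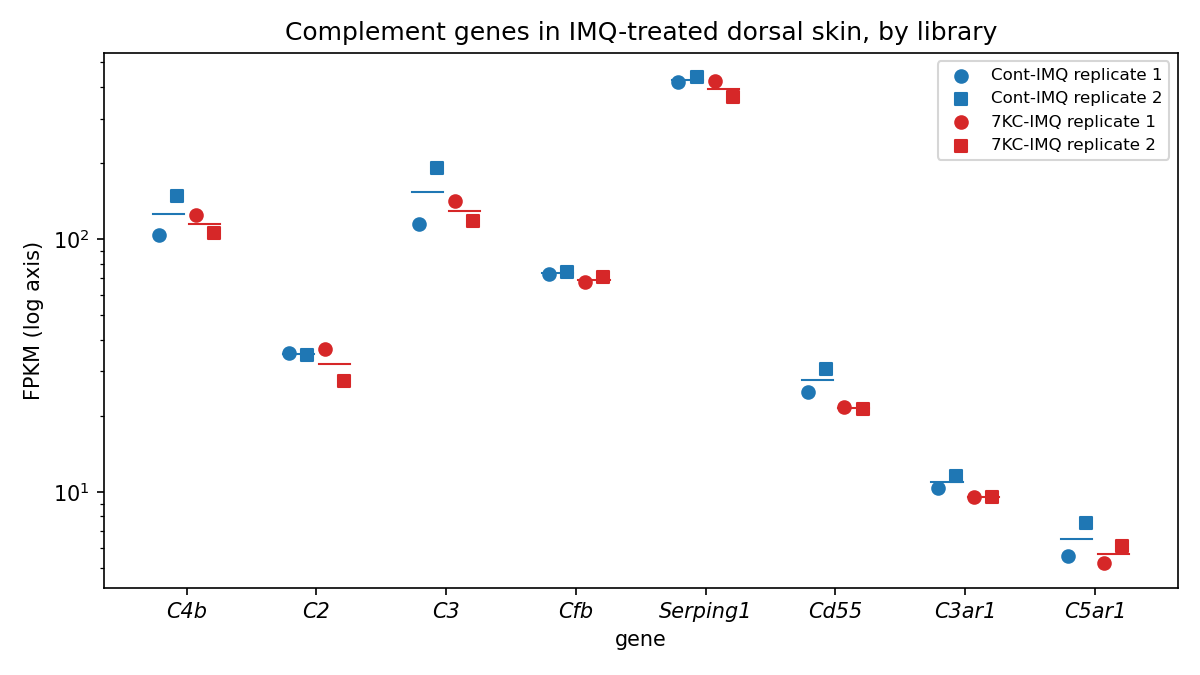
FPKM on a log axis for each of the 8 genes in each library, with a short line at each group mean. Blue marks Cont-IMQ, red marks 7KC-IMQ, circles are replicate 1 and squares replicate 2. The order from *Serping1* (mean of the 4 libraries 411 FPKM) to *C5ar1* (6.10 FPKM) was the same in each library, and the blue square is the highest point of every gene but *C2*.

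The libraries were of like depth. The files hold no read counts, and the low FPKM values, most of which lie near steps of 1 read, gave estimates between 15070000 and 16340000 mapped reads. In hair follicle genes the Cont-IMQ libraries lay on opposite sides of the 7KC-IMQ libraries. The summed FPKM of 6 follicle keratin and trichohyalin genes was 1423 in Cont-IMQ replicate 2 and 99.5 in Cont-IMQ replicate 1. It was 394 and 348 in 7KC-IMQ replicates 1 and 2. The markers of skin were present, with *Krt14* between 4132 and 5700 FPKM and *Col1a1* between 471 and 819 FPKM. Groups were compared by limma over the 15896 genes whose FPKM averaged 0.1 or more, with Benjamini-Hochberg adjustment. In bulk tissue, fewer cells of a type and less RNA per cell cannot be told apart.

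By level, the 8 genes kept one order in all 4 libraries. *Serping1* was the highest, followed by *C3*, *C4b*, *Cfb*, *C2*, *Cd55*, *C3ar1* and *C5ar1*. FPKM is scaled to length, so levels can be set side by side between genes. The ranges over the 4 libraries overlapped for *C3* and *C4b* and for *C2* and *Cd55*, and for no other neighbors in this order. Within each library, the FPKM of *C3* was between 1.10 and 1.29 times that of *C4b*. The central components and the C1 inhibitor stood far above the anaphylatoxin receptors in this tissue.

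Of the classical pathway, *C4b* (ENSMUSG00000073418.4, chromosome 17 of GRCm38 from 34728380 to 34743882) encodes complement C4. Replicates 1 and 2 stood at 104 and 148 FPKM in Cont-IMQ skin, against 124 and 106 FPKM in 7KC-IMQ skin. Both 7KC-IMQ values lay between the Cont-IMQ values. The means were 126 ± 31.2 and 115 ± 13.3 FPKM (SD, n = 2), and the log2 difference was -0.12 (95% interval -0.63 to 0.40, adjusted p = 0.827 in limma). Of the 75-base windows of *C4b*, 22.7% also occur in *C4a*, the neighboring copy, which had at most 0.317 FPKM. *C2* (ENSMUSG00000024371.14, chromosome 17 from 34862604 to 34898265) encodes the protease that pairs with C4. It had 35.4 and 34.9 FPKM in Cont-IMQ skin, against 36.7 and 27.4 FPKM in 7KC-IMQ skin. The means were 35.2 ± 0.352 and 32.1 ± 6.60 FPKM (SD, n = 2). Only 7KC-IMQ replicate 2 was low, and the other 7KC-IMQ library was the highest of all 4. The log2 difference of -0.14 (95% interval -0.54 to 0.26, adjusted p = 0.721 in limma) became 0.061 without 7KC-IMQ replicate 2.

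*C3* (ENSMUSG00000024164.15, chromosome 17 from 57203970 to 57228136) encodes the protein on which all routes meet. Replicates 1 and 2 stood at 115 and 192 FPKM in Cont-IMQ skin, against 141 and 118 FPKM in 7KC-IMQ skin. The Cont-IMQ libraries were the lowest and the highest of the 4, and both 7KC-IMQ libraries lay between them. The means were 153 ± 54.8 and 129 ± 16.7 FPKM (SD, n = 2), and the log2 difference was -0.20 with a standard error of 0.27 and an adjusted p of 0.785 in limma. The 95% interval of -0.91 to 0.50, the widest of the 8 genes, corresponds to folds between 0.534 and 1.42. The difference was 0.17 without Cont-IMQ replicate 2 and -0.57 without Cont-IMQ replicate 1. An estimated 8637 to 14361 reads lay behind each value, for which counting alone gives an SD of at most 1.08%.

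*Cfb* (ENSMUSG00000090231.10, chromosome 17 from 34856374 to 34862518) encodes factor B, the protease of the alternative route. It had 73.0 and 74.2 FPKM in Cont-IMQ skin, against 67.9 and 70.6 FPKM in 7KC-IMQ skin. The means were 73.6 ± 0.841 and 69.2 ± 1.94 FPKM (SD, n = 2). The groups did not overlap, but the difference was the smallest of the 8, -0.088 (95% interval -0.27 to 0.093, adjusted p = 0.627 in limma). The interval corresponds to folds between 0.830 and 1.07, the narrowest of the set. Upstream of *Cfb* on the same strand lies *C2*, with 85 bases between the annotated genes. In the annotation, 69.9% of the windows of *Cfb* and 37.0% of those of *C2* also occur in *Gm20547*, a gene model that overlaps parts of both and is not among the symbols of the files. The FPKM ratio of *C2* to *Cfb* was 0.485 and 0.471 in Cont-IMQ skin, against 0.541 and 0.388 in 7KC-IMQ skin, so the neighbors did not keep a fixed ratio.

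Among the regulators, *Serping1* (ENSMUSG00000023224.12, chromosome 2 from 84765387 to 84775444) encodes the C1 inhibitor. It had 419 and 437 FPKM in Cont-IMQ skin, against 423 and 366 FPKM in 7KC-IMQ skin. The means were 428 ± 12.7 and 394 ± 40.5 FPKM (SD, n = 2). One 7KC-IMQ library lay between the Cont-IMQ values and the other below them. The log2 difference was -0.12 (95% interval -0.40 to 0.16, adjusted p = 0.658 in limma) and -0.016 without 7KC-IMQ replicate 2.

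*Cd55* (ENSMUSG00000026399.12, chromosome 1 from 130439027 to 130462744) encodes the decay-accelerating factor, which takes C3 convertases apart on the cell surface. It had 25.0 and 30.6 FPKM in Cont-IMQ skin, against 21.6 and 21.2 FPKM in 7KC-IMQ skin. The groups did not overlap, and the 7KC-IMQ libraries lay close together. The means were 27.8 ± 3.99 and 21.4 ± 0.283 FPKM (SD, n = 2). Of the windows of *Cd55*, 5.53% also occur in *Cd55b*. The log2 difference of -0.35 (95% interval -0.66 to -0.044) was the largest of the 8 and had an unadjusted p of 0.0328 and an adjusted p of 0.365 in limma. The difference was -0.21 without Cont-IMQ replicate 2, -0.50 without Cont-IMQ replicate 1, and lower in the 7KC-IMQ group whichever library was left out. Endothelial markers had a lower sum beside it, and so had macrophage, mast cell, T cell and hepatocyte markers. The summed FPKM of 5 endothelial genes was 48.3 and 53.8 in Cont-IMQ skin, against 41.5 and 39.7 in 7KC-IMQ skin. Of the 5, 4 were lower without overlap and none was at 0. None of the 5 passed the adjusted threshold in limma (lowest adjusted p = 0.354, *Emcn*), 22.9% of all genes were lower without overlap, and the part of these cells in the result was not tested.

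The receptor genes had the lowest levels. *C3ar1* (ENSMUSG00000040552.8, chromosome 6 from 122847138 to 122856161) encodes the C3a receptor. It had 10.3 and 11.6 FPKM in Cont-IMQ skin, against 9.54 and 9.51 FPKM in 7KC-IMQ skin. The means were 11.0 ± 0.888 and 9.53 ± 0.0160 FPKM (SD, n = 2). The groups did not overlap, and the log2 difference was -0.18 (95% interval -0.44 to 0.074, adjusted p = 0.499 in limma). *C5ar1* (ENSMUSG00000049130.6, chromosome 7 from 16246743 to 16259540) encodes the main C5a receptor. It had 5.56 and 7.52 FPKM in Cont-IMQ skin, against 5.22 and 6.10 FPKM in 7KC-IMQ skin. The means were 6.54 ± 1.38 and 5.66 ± 0.621 FPKM (SD, n = 2). The groups overlapped, and the log2 difference of -0.17 (95% interval -0.61 to 0.27, adjusted p = 0.703 in limma) became 0.019 without Cont-IMQ replicate 2. *C5ar1* had the thinnest support, an estimated 199 to 266 reads per library, for which counting alone gives an SD of 7.09% at the lowest.

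Macrophages and mast cells carry these receptors, and the summed levels of their markers were lower in both 7KC-IMQ libraries, although no single marker passed an adjusted p of 0.05 in limma. The summed FPKM of 9 macrophage genes was 382 and 430 in Cont-IMQ skin, against 349 in both 7KC-IMQ libraries, with 3 genes lower and 1 higher without overlap and none at 0. *Lyz2*, which held most of that sum, had 210 and 233 FPKM in Cont-IMQ skin, against 191 and 175 FPKM in 7KC-IMQ skin, whereas the log2 difference of *Cd14* was 0.28. *Adgre1*, which encodes F4/80, had 49.0 and 64.3 FPKM in Cont-IMQ skin, against 46.7 and 50.5 FPKM in 7KC-IMQ skin. The sum of 7 mast cell genes was 107 and 105 FPKM in Cont-IMQ skin, against 87.6 and 92.0 FPKM in 7KC-IMQ skin, with 3 lower without overlap, none higher and none at 0. Neutrophil markers, which also come with *C5ar1*, overlapped between the groups in sum (45.3 and 61.2 against 57.6 and 59.3 FPKM), with 5 of 8 genes higher and 2 lower without overlap and none at 0. *Ly6g*, also on that list, is not analysed here. Beside the counts of these 3 cell types, 22.9% of all genes tested were lower and 23.9% higher without overlap. The part of these cells in the receptor values was not tested.

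**Figure D2:**
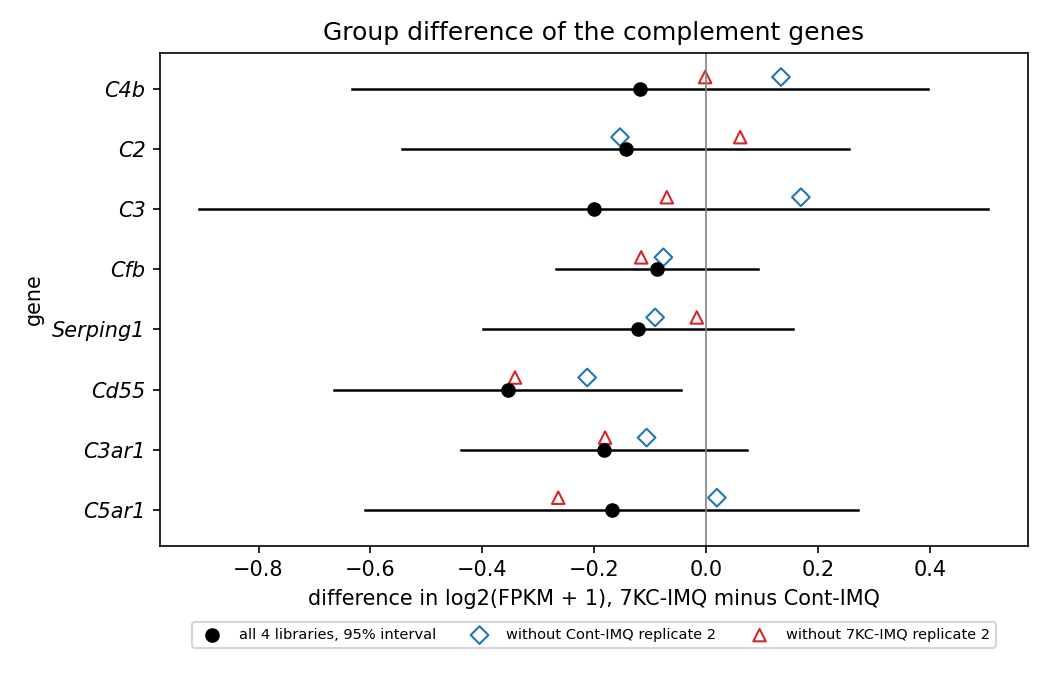
Group difference of the 8 genes in log2(FPKM + 1), 7KC-IMQ minus Cont-IMQ. Black points with lines are limma's estimates with their 95% intervals from all 4 libraries, blue diamonds the estimates without Cont-IMQ replicate 2, and red triangles those without 7KC-IMQ replicate 2. The interval lies below 0 for *Cd55* alone, and the open marks of *C3*, *C4b*, *C5ar1* and *C2* reach the right of 0.

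Counted together, 0 of the 8 genes passed an adjusted p of 0.05 in limma, where 0.00629% of all genes tested did. At an unadjusted p under 0.05, 1 of the 8 was lower (*Cd55*) and 0 were higher, where 5.47% and 7.5% of all genes were. Without overlap, 3 of the 8 were lower (*Cfb*, *Cd55* and *C3ar1*) and 0 were higher, where 22.9% and 23.9% of all genes were. The mean was lower in 8 of the 8, against 51.3% of all genes tested. Of the 29 other complement genes tested, 17 (58.6%) had a lower mean. The 8 genes were chosen with earlier results of these data known. The median log2 difference was -0.16 for the 8 genes and -0.0056 for all genes tested. The 8 genes share their libraries, so these counts are not independent. With 2 libraries in each group, the smallest p that an exact two-sided permutation could reach is 0.333.

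Cont-IMQ replicate 2 was the highest of the 4 libraries in 7 of the 8 genes, a count made after the values were seen, where it was the highest in 27.5% of all genes tested. On the log2(FPKM + 1) scale it lay 0.47 above the 4-library mean for *C3*, 0.32 for *Cd55*, 0.31 for *C4b* and 0.27 for *C5ar1*, but only 0.055 for *Cfb*. Without it, the group differences were 0.17 for *C3*, 0.13 for *C4b*, 0.019 for *C5ar1*, -0.076 for *Cfb*, -0.091 for *Serping1*, -0.11 for *C3ar1*, -0.15 for *C2* and -0.21 for *Cd55*. With the single remaining Cont-IMQ library, 3 of the 8 genes were lower and 2 higher without overlap, where 38.6% and 38.9% of all genes tested were. At an unadjusted p under 0.05 in limma there were 0 of the 8, where 14.1% of all genes were. Hair follicle markers were highest in Cont-IMQ replicate 2 too and lowest in Cont-IMQ replicate 1, and their part in the result was not tested. Leaving out the highest Cont-IMQ library raises a gene's difference by construction. Without Cont-IMQ replicate 1, the group differences were -0.57 for *C3*, -0.50 for *Cd55*, -0.37 for *C4b* and -0.36 for *C5ar1*. Those of *C3ar1*, *Serping1*, *C2* and *Cfb* were -0.26, -0.15, -0.13 and -0.099.

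For the rest of the pathway, 52 complement genes were listed by role, the 8 included, and 37 of them passed the filter. Of the 15 others, 5 (*Mbl1*, *Mbl2*, *Fcnb*, *Colec10* and *Cr2*) were listed at 0 in all 4 libraries. Over the 37 genes tested, 0 passed an adjusted p of 0.05 in limma, 3 were lower at an unadjusted p under 0.05 (*Cd55*, *Vtn* and *Vsig4*) and 0 were higher. Without overlap, 8 were lower and 2 higher, which is 21.6% and 5.41% of those tested, beside the 22.9% and 23.9% of all genes. Without Cont-IMQ replicate 2 these counts were 11 and 12 of 39 tested, beside 38.6% and 38.9% of all genes. The median log2 difference of the 29 tested genes outside the set of 8 was -0.040.

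**Figure D3:**
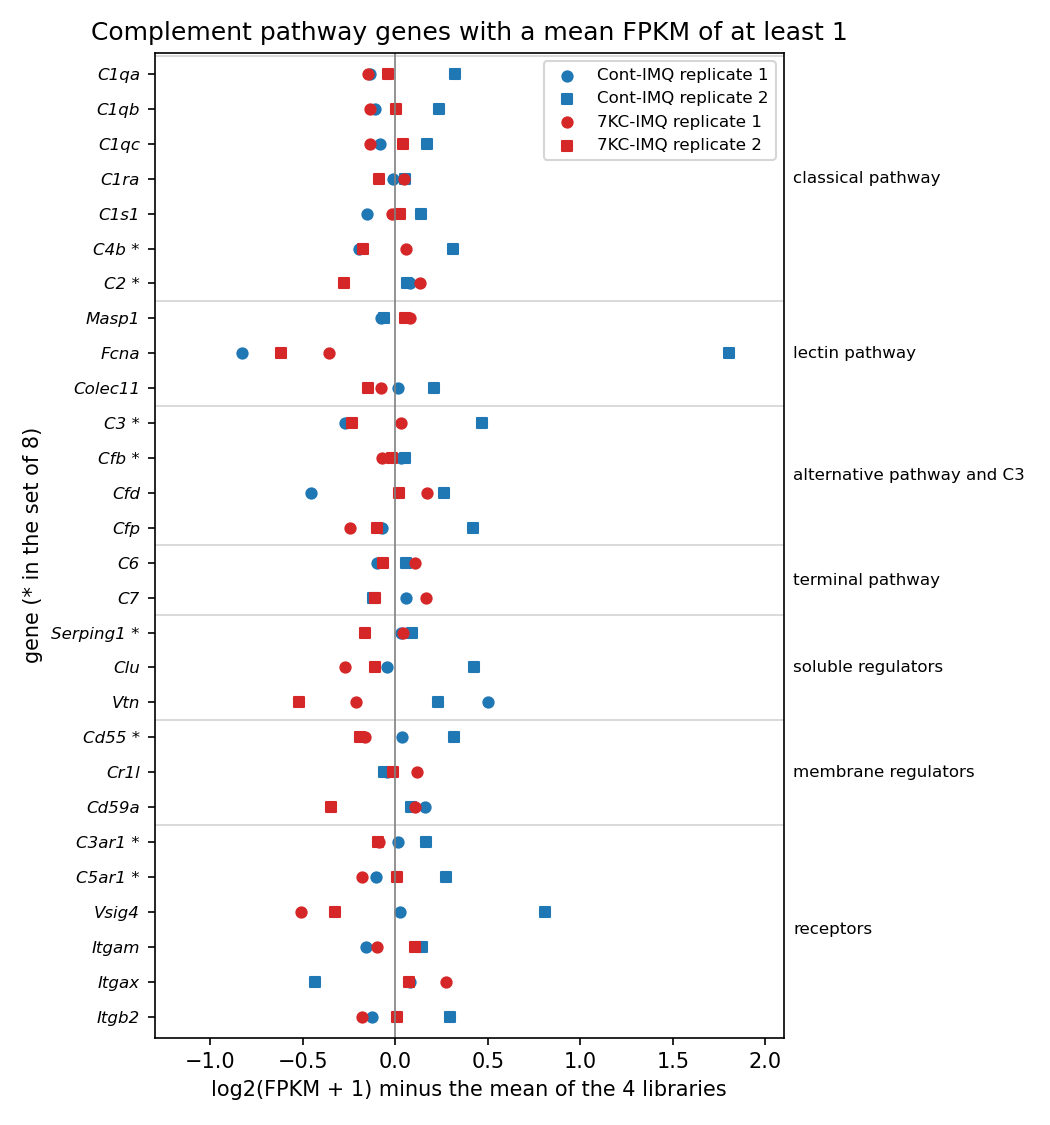
Profiles of 28 complement genes that averaged 1 FPKM or more, ordered by role. Each point is 1 library, plotted as log2(FPKM + 1) minus the mean of the gene's 4 libraries. Blue squares, Cont-IMQ replicate 2, are the rightmost point in 20 of the 28 genes, and the farthest is *Fcna*.

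The recognition subunits of C1, *C1qa*, *C1qb* and *C1qc*, which macrophages express, had between 176 and 276 FPKM in every library. *C1qa* had 201 and 276 FPKM in Cont-IMQ skin, against 199 and 214 FPKM in 7KC-IMQ skin, and the groups overlapped in all 3 genes. The C1 proteases *C1ra* and *C1s1* had log2 differences of -0.040 and 0.013. In the lectin route, *Masp1* was higher without overlap, at 11.0 and 11.2 FPKM against 12.4 and 12.1 FPKM (log2 difference 0.13, adjusted p = 0.549 in limma). *Fcna*, which encodes ficolin A, had 21.8 FPKM in Cont-IMQ replicate 2 and between 2.70 and 4.11 FPKM in the others.

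Of the alternative route, *Cfd* encodes factor D, which fat cells secrete. It was the highest complement gene of all, with 603 and 992 FPKM in Cont-IMQ skin, against 931 and 839 FPKM in 7KC-IMQ skin. *Cfp*, which encodes properdin, had 39.8 and 56.4 FPKM against 35.2 and 39.1 FPKM, lower without overlap (log2 difference -0.35, adjusted p = 0.496 in limma). That difference was -0.10 without Cont-IMQ replicate 2 and -0.59 without Cont-IMQ replicate 1. The terminal components were unevenly expressed. *C7* had 34.2 to 41.9 FPKM and *C6* 5.34 to 6.32 FPKM, whereas *Hc*, which encodes C5, had at most 0.0494 FPKM.

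Of the other regulators, *Vtn*, which encodes vitronectin, had 3.29 and 2.56 FPKM in Cont-IMQ skin, against 1.62 and 1.11 FPKM in 7KC-IMQ skin. Its log2 difference of -0.73 (standard error 0.17) had an unadjusted p of 0.00906 and an adjusted p of 0.356 in limma, from an estimated 26 to 78 reads. *Clu*, which encodes clusterin, had 50.2 and 70.1 FPKM against 42.9 and 48.1 FPKM, a log2 difference of -0.38 that was -0.14 without Cont-IMQ replicate 2 and -0.62 without Cont-IMQ replicate 1. *Cr1l*, which encodes the rodent membrane regulator Crry, was higher without overlap, with 33.6 and 33.2 FPKM against 37.8 and 34.5 FPKM (log2 difference 0.11, adjusted p = 0.609 in limma), and the difference was 0.044 without 7KC-IMQ replicate 1 and 0.17 without 7KC-IMQ replicate 2. *Cd46* was low, at 0.242 to 0.392 FPKM.

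Among the other receptors, *Vsig4*, a receptor of C3 fragments on tissue macrophages, had 1.17 and 2.73 FPKM in Cont-IMQ skin, against 0.496 and 0.700 FPKM in 7KC-IMQ skin. The log2 difference of -0.84 (standard error 0.28) had an unadjusted p of 0.0356 and an adjusted p of 0.366 in limma. It was -0.44 without Cont-IMQ replicate 2 and -1.23 without Cont-IMQ replicate 1. These values rest on an estimated 10 to 51 reads per library. *Itgam* and *Itgb2*, the subunits of complement receptor 3, had log2 differences of 0.0089 and -0.17. *C5ar2*, which lies 2588 bases from *C5ar1* on chromosome 7, had at most 0.487 FPKM.

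**Figure D4:**
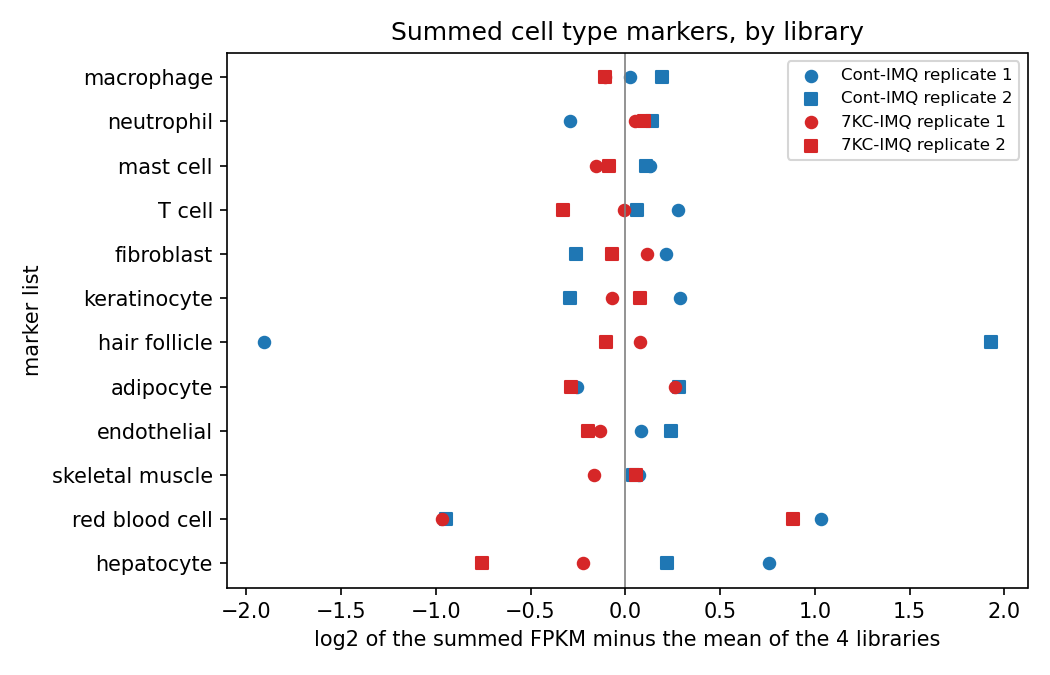
Log2 of the summed FPKM of 12 cell type marker lists in each library, minus the mean of the 4 libraries, with symbols as in the plot of levels. The macrophage, mast cell, T cell, endothelial and hepatocyte sums lay lower in the 7KC-IMQ group without overlap, and the hair follicle sum spread most.

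*Alb*, the albumin gene of the liver, had between 0.538 and 1.93 FPKM. The sum of 5 hepatocyte genes was 8.64 and 5.95 FPKM in Cont-IMQ skin, against 4.37 and 3.02 FPKM in 7KC-IMQ skin, far under the levels of *C3* or *Serping1*, with 3 genes lower without overlap and 1 (*Apoa2*) at 0 in 1 library. Fibroblast markers overlapped between the groups in sum, with 3416 and 2454 FPKM in Cont-IMQ skin, against 3188 and 2799 FPKM in 7KC-IMQ skin. Keratinocyte, fat cell, skeletal muscle and red blood cell sums overlapped too, with ratios of the group means between -0.12 and -0.021 on the log2 scale. Leaving out 1 library at a time moved the red blood cell ratio between -1.33 and 1.18 and the fat cell ratio between -0.33 and 0.27. The T cell sum of 5 genes was 20.3 and 17.5 FPKM in Cont-IMQ skin, against 16.7 and 13.3 FPKM in 7KC-IMQ skin. Of these genes, 2 were lower and 1 higher without overlap, and *Cd3g* alone had 10.1 and 9.61 FPKM, against 7.62 and 5.59 FPKM. Beside the hepatocyte and T cell counts, 22.9% of all genes tested were lower and 23.9% higher without overlap.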

How the data were processed

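RNA sequencing was carried out on IMQ-treated dorsal skin in 4 libraries, 2 per group, with groups and replicate numbers taken from the sample labels. Libraries were made with a stranded mRNA kit. Reads were single-end and 75 bases long. They were mapped to mm10 by the authors, who deposited an FPKM value per gene in a separate table for each library. The submitters' processing notes name TopHat2 2.1.1, Bowtie2 2.2.8, SAMtools 0.1.18 and Cuffdiff 2.2.1, and the paper gives Cufflinks and other versions. The strand setting and the treatment of reads shared between genes are not given in the sources used here.

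The values were not rescaled. The 15896 genes whose FPKM averaged 0.1 or more were compared on log2(FPKM + 1) with limma 3.58.1 (lmFit, then eBayes with a variance trend, R 4.3.3) and Benjamini-Hochberg adjustment at 0.05. Fold changes on this scale understate changes of low genes. P-values measure the spread between these libraries, which may be technical. No count test was used, since the unit is not counts. The fit was tested on simulated data.

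Reads were estimated from the steps of low values with GENCODE M21 (GRCm38) transcript lengths, using the longest transcript of each gene, and between 71.4% and 73.5% of the low genes lay within 0.1 of a whole read (20% by chance). These estimates cover counting error only. The list of complement genes holds 1 gene that enters the counts and is not reported here by name. Windows of 75 bases were compared between all annotated transcripts. The 8 genes and the lists were chosen with earlier results of these data known. Named were the 8 genes, genes of the complement list by role, list markers, and for each of the 8 the 3 genes with the nearest profile. Alternatives were the pseudocount, the filter, 3 scalings, no trend, a replicate block and leaving out each library.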

Additional observations from a re-analysis of the deposited data

How the results depend on the processing

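No alternative brought any of the 8 genes past an adjusted p of 0.05 (lowest 0.274, for *Cd55* without Cont-IMQ replicate 1). The 8 genes stayed lower in the 7KC-IMQ group under the other pseudocount, filters, scalings, the fit without a trend and the replicate block. Leaving out 1 library at a time, the log2 difference ranged from -0.57 to 0.17 for *C3*, -0.37 to 0.13 for *C4b*, -0.36 to 0.019 for *C5ar1* and -0.35 to 0.061 for *C2*. It stayed below 0 for *Cfb* (-0.12 to -0.059), *Serping1* (-0.23 to -0.016), *Cd55* (-0.50 to -0.21) and *C3ar1* (-0.26 to -0.11). Of other complement genes, the ranges crossed 0 for *C1qa* (-0.42 to 0.039), *C1qb* (-0.30 to 0.047), *C1qc* (-0.22 to 0.034), *C1ra* (-0.10 to 0.025), *C1s1* (-0.13 to 0.16), *Fcna* (-2.29 to 0.34), *Cfd* (-0.17 to 0.55), *C6* (-0.044 to 0.13), *C7* (-0.077 to 0.20), *Itgam* (-0.14 to 0.16) and *Itgb2* (-0.38 to 0.040). Rescaling to the same sum, which moved the median of all genes to -0.067, gave -0.068 for *C1s1*, -0.027 for *C6*, -0.020 for *C7* and -0.071 for *Itgam*, and quantile normalization gave -0.071 for *C1s1* and -0.044 for *Itgam*. The cause of these changes was not tested.

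Of the 8 genes, between 3 and 7 were lower and between 0 and 2 higher without overlap when a library was left out, and between 0 and 2 had an unadjusted p under 0.05. The 7 lower genes were found without Cont-IMQ replicate 1, where 6212 of the 15900 genes tested were lower without overlap. Fewer libraries separate more genes by construction. For the complement genes tested these ranges were 11 to 25 lower, 4 to 12 higher and 0 to 11 at an unadjusted p under 0.05. For all genes they were 5343 to 6212 lower and 5297 to 6163 higher without overlap, 619 to 2345 at an unadjusted p under 0.05, and 1 to 11 past the adjusted threshold, against 1 with all libraries and 2 with a pseudocount of 0.1. Rescaling to the same sum left 0 complement genes and 2382 of all genes higher without overlap, against 2 and 3801. It put 12 complement genes and 5113 of all genes lower without overlap, against 8 and 3634. With the replicate block, 5 complement genes had an unadjusted p under 0.05 against 3 without it. The replicate differences of the groups correlated at 0.065 over genes, so the shared numbers were not taken as pairs, and the block changed no adjusted call of a complement gene.

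For the summed markers, the log2 ratio of the 7KC-IMQ to the Cont-IMQ mean, with each library left out, ranged from -0.30 to -0.13 for macrophages, -0.068 to 0.37 for neutrophils, -0.19 to 0.29 for fibroblasts, -0.28 to 0.30 for keratinocytes, -1.94 to 1.90 for hair follicles and -0.22 to 1.23e-05 for skeletal muscle. The mast cell ratio was -0.24, and -0.32 after rescaling to the same sum. With 2 libraries a group, differences of any size within the stated intervals remain possible.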

Other observations

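Ratios of complement genes to *Adgre1*, the F4/80 gene of macrophages, were compared after the values were seen. The FPKM ratio of *C1qa* to *Adgre1* was 4.10 and 4.29 in Cont-IMQ skin, against 4.26 and 4.24 in 7KC-IMQ skin. That of *C5ar1* to *Adgre1* was 0.114 and 0.117 against 0.112 and 0.121, and that of *C3ar1* to *Adgre1* was 0.211 and 0.180 against 0.204 and 0.188. With *Csf1r*, another macrophage marker, the ratio of *C3ar1* varied more, from 0.514 to 0.656. *Csf1r* had 20.1 FPKM in Cont-IMQ replicate 1 and 17.7 FPKM in replicate 2, whereas *Adgre1*, *C1qa* and *C5ar1* were higher in replicate 2. *Adgre1* is 1 of the 9 macrophage markers listed, and the ratios of *C1qa* and *C5ar1* to the others were not computed. The near-constant ratios are thus shown for *Adgre1* alone. The FPKM ratio of *C3* to *Cd55*, the substrate gene to its membrane regulator, was 4.59 and 6.27 in Cont-IMQ skin, against 6.54 and 5.55 in 7KC-IMQ skin, and overlapped.

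Genes with the nearest profiles were sought by the smallest distance of the centred log2(FPKM + 1) over the 4 libraries, among 13109 other genes that averaged 1 FPKM or more. For *C3* they were *Tspan13*, *Ttyh3* and *Lpar6* (distance 0.057 to 0.063), and for *C4b* they were *Grb10*, *Wnt10b* and *Slc29a1* (0.013 to 0.042). Nearest to *C2* stood *Glb1l2*, *Apbb3* and *Nfam1*, and nearest to *Cfb* stood *Usp24*, *Kbtbd3* and *Kcnn4*. *Serping1* had *Mical1*, *Cnrip1* and *Slit2* beside it, *Cd55* had *Tie1*, *Chd3* and *Pik3ip1*, *C3ar1* had *Fgd3*, *Ephb4* and *Fgd4*, and *C5ar1* had *Mal*, *Gcnt1* and *Tmtc1*. *Tie1*, nearest to *Cd55* at a distance of 0.017, is also on the endothelial marker list. The match rests on 4 libraries and says nothing of shared function.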
